A study of Mus musculus with 2 samples.

Results

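The genes of the TNF superfamily described here are those whose symbol begins with Tnfsf, for a ligand, or Tnfrsf, for a receptor, followed by a digit. The table deposited for the series lists 31 of them among 23284 genes, with 11 ligands and 20 receptors, and RefSeq names 31 protein-coding mouse genes of this symbol pattern, all of which were in the table. RNA was sequenced from Ly6Chi and from Ly6Clo macrophages, with 1 library for each, both from hearts of C57BL/6 mice infarcted by tying off the left anterior descending coronary artery and both collected on day 3. Classical monocytes and their recent descendants carry much of the Ly6C glycoprotein on their surface. The labels give neither the number of animals behind a library, nor their age, nor the gates used to collect the cells.

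The values are the authors' signed statistic for the comparison of the libraries and its rank, where rank 1 has the largest size. No source used here says which population a positive sign stands for, and the per-library columns were left aside, since their codes correspond to neither sample's labels. Results are therefore given by side, with Ly6c2, a gene of the Ly6C antigen, as a landmark at -1.78, rank 18 of the authors' deposited table. The statistic has no stated unit, and it is read here as neither a level nor a fold change. Each population has a single library, so the differences have no replicate check, and no p-value is given. Depth was not analysed here, and in such bulk libraries fewer cells of a type and less RNA per cell cannot be told apart.

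TNF superfamily ligands are mostly membrane proteins that act as trimers, on the cell surface or after being shed. Their receptors fall into death domain receptors, which can start apoptosis or necroptosis, receptors that bind TRAF adaptors and turn on NF-kB, and decoys that hold the ligand without signalling. In the immune system the family carries costimulation between antigen-presenting cells and T cells, survival signals for B cells, and inflammatory signals such as those of TNF itself. Macrophages and dendritic cells make several of the ligands and carry receptors for TNF.

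The largest values of the family belonged to Tnfsf9, Tnfrsf9, Tnfsf4 and Tnfsf15. Tnfsf9, which encodes 4-1BB ligand, a costimulator presented to activated T cells, had the largest value of all members, 1.11 at rank 130 in the authors' deposited table. Its receptor gene Tnfrsf9, which encodes 4-1BB, followed at 0.979 and rank 199 in the authors' deposited table. Tnfsf4, which encodes OX40 ligand, another T cell costimulator of antigen-presenting cells, stood at 0.901 and rank 257 in the authors' deposited table. Tnfsf15, which encodes TL1A, a costimulator made by endothelial and myeloid cells, had 0.540, at rank 949.5 in the authors' deposited table. All 4 lay on the side opposite to Ly6c2. They were the members with a size of at least 0.5, and no member reached that size on the side of Ly6c2.

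That made 4 of 31 members, or 12.9%, on the positive side at a size of at least 0.5, where 3.77% of all genes in the table reached it. On the negative side the members gave 0 of 31, against 0.988% of all genes. At a size of at least 0.25, 8 members were positive and 3 negative, or 25.8% and 9.68%, against 9.9% and 4.66% of all genes. At a size of at least 1 only Tnfsf9 was left, 3.23% of members, where 0.709% of all genes were positive and 0.0644% negative. The shares of all genes include the 6982 genes at exactly 0, which cannot reach any of these sizes, whereas 1 of the 31 members was at 0. The members are thus set against lower shares than the genes other than 0 would give. No error rate is attached to these sizes. The member just inside 0.5 was Tnfsf15, and the one just outside was Tnfrsf18 at 0.419 in the authors' deposited table.

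**Figure D1:**
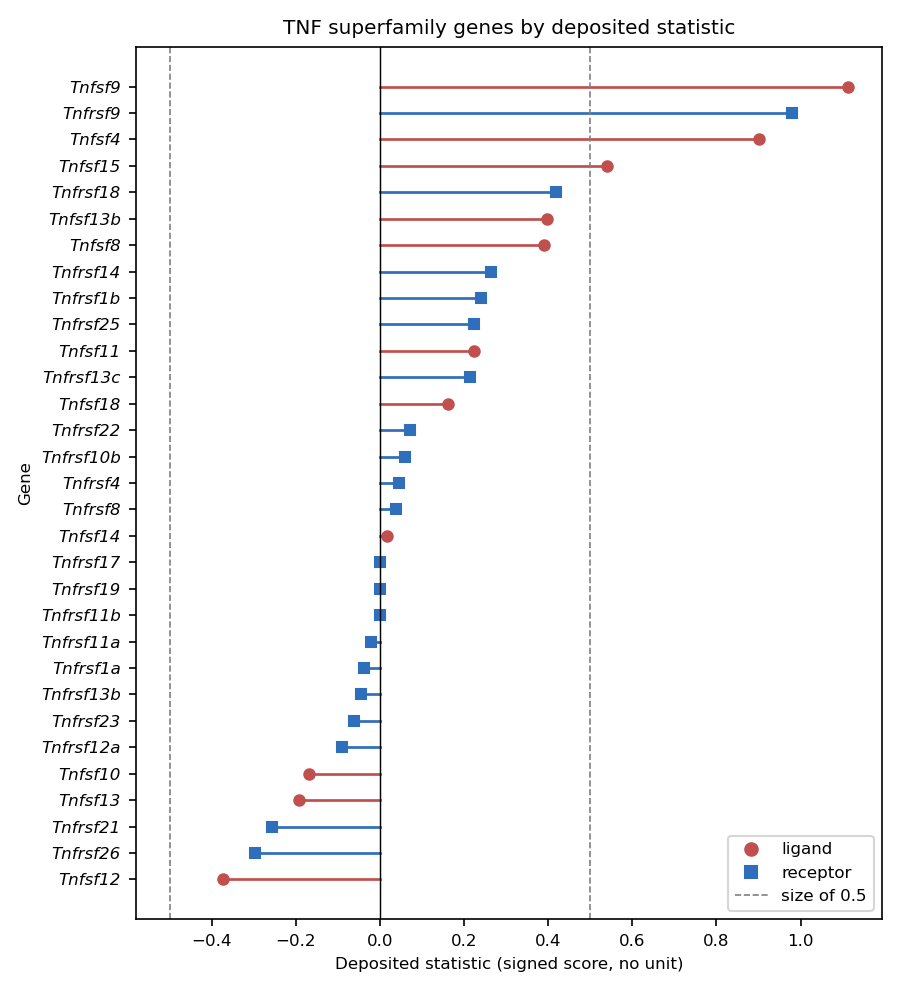
Deposited statistic (horizontal axis, signed score without unit) of each of the 31 TNF superfamily genes (vertical axis), with circles for ligands, squares for receptors and dashed lines at a size of 0.5. The 4 points past the right line are Tnfsf9, Tnfrsf9, Tnfsf4 and Tnfsf15, and no point passes the left line.

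Promoters in RefSeq on GRCm38.p6, the assembly of mm10, were found for 24 of the 31 members, in 28 windows, of which 3 held a match to the kappaB consensus bound by NF-kB and 6 a match to the AP-1 motif TGANTCA, or 10.7% and 21.4%. Both strands were searched from 250 bases before to 50 bases after each annotated start. The windows of both Tnfsf13b starts overlap and hold the same AP-1 match, so the 6 windows belong to 5 members. Of the 32851 such windows in RefSeq, 8.46% held the kappaB consensus and 7.81% the AP-1 motif. The windows of Tnfrsf9 and Tnfsf15 are printed because these are the leading members with a RefSeq window, and that of Tnfrsf8, the gene of CD30, because it holds the same pair of motifs beside a small value. Capitals mark motif matches. The lines give chr4:150919905-150920204 and chr4:150927749-150928048 on the plus strand for the starts of Tnfrsf9, chr4:63745010-63745309 on the minus strand for Tnfsf15, and chr4:145315115-145315414 on the minus strand for Tnfrsf8.
Tnfrsf9 upstream start: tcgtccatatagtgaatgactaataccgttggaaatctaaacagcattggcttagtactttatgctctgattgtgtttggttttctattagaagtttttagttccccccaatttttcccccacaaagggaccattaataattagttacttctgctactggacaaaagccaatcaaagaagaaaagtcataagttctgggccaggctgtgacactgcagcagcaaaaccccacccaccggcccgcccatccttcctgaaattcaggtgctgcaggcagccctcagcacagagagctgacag
Tnfrsf9 downstream start: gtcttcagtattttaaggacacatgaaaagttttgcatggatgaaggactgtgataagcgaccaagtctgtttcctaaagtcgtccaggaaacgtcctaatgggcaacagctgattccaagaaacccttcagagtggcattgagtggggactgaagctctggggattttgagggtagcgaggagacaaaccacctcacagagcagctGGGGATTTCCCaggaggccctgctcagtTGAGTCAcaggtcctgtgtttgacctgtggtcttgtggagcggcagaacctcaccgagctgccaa
Tnfsf15: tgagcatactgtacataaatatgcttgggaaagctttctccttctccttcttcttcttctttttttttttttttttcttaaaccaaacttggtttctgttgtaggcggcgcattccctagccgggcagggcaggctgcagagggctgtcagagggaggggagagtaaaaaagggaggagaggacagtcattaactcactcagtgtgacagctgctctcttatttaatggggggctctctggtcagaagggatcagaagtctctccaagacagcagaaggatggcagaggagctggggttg
Tnfrsf8: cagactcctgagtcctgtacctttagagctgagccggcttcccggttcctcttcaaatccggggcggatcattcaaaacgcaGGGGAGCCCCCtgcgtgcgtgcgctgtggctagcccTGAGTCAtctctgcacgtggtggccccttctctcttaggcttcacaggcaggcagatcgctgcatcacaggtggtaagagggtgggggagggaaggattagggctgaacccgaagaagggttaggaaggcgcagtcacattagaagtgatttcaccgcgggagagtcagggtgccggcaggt

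In the window of the downstream Tnfrsf9 start, overlapping kappaB matches began 43 and 42 bases before the start and an AP-1 match 15 bases before it. The upstream start of the same gene and the start of Tnfsf15 held neither motif. At Tnfrsf8, overlapping kappaB matches began 168 and 167 bases before the start and an AP-1 match 132 bases before it. Its statistic was 0.0391 in the authors' deposited table, a value held by 21 genes, so nothing is read from the contrast with Tnfrsf9. Such matches describe the letters of these windows and show neither binding nor use of a start.

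The other ligands had smaller values on both sides. Tnfsf13b encodes BAFF, a survival factor for B cells that myeloid cells secrete, and had 0.397 in the authors' deposited table. Tnfsf8, which encodes CD30 ligand, had 0.390 in the authors' deposited table, a value it shared exactly with 8 other genes, so that 9 genes held it. Tnfsf11, which encodes RANKL, the cytokine that drives osteoclast formation, had 0.225 in the authors' deposited table, and Tnfsf18, which encodes GITR ligand, had 0.163. These values were shared exactly by 42 and 24 genes of the table, including the gene itself. Tnfsf14, which encodes LIGHT, a ligand for HVEM and the lymphotoxin beta receptor, had 0.0179 in the authors' deposited table.

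The 3 ligand genes on the side of Ly6c2 act in tissue injury, plasma cell survival and cell death. Tnfsf12 encodes TWEAK, a ligand made by macrophages that acts on injured tissue, and its -0.373 was the lowest value of any member in the authors' deposited table. Tnfsf13, which encodes APRIL, a plasma cell survival factor, had -0.192 in the authors' deposited table. Tnfsf10, which encodes the death ligand TRAIL, had -0.168 in the authors' deposited table. Tnfsf12, at chromosome 11 from 69686240 to 69696098 on mm10, and Tnfsf13, from 69682577 to 69685554, both lie within the joint gene Tnfsfm13 on the same strand, and the antisense gene Tnfsf13os overlaps both. How reads were assigned among them is not given in the sources used here, so their values are uncertain as values of single genes.

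Ligands and receptors were also summarised apart. Of 11 ligands, 8 were positive and 3 negative, and their median statistic was 0.225, computed from the authors' deposited table, or 0.390 without the overlapping Tnfsf12 and Tnfsf13. Of 20 receptors, 12 were positive, 7 negative and 1 at exactly 0, and the median of the others was 0.0391, against 0.0195 with the member at 0 included and a mean of 0.0918. Over all 16302 genes of the table with a value other than 0 the median was 0.0051, and 57.7% were positive, against 72.7% of ligands and 63.2% of receptors. Without the genes at the smallest positive value, 10 of 17 receptors were positive, or 58.8%, close to the 55.4% of all genes counted in the same way. The order-statistic intervals of the medians, which treat genes as independent draws, ran from -0.192 to 0.901 for ligands and from -0.0444 to 0.225 for receptors. Nothing is read from their overlap, and the difference between ligands and receptors was not tested.

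TRAF-binding receptors make up 12 of the 20 receptor genes. Of these, 9 were positive, 2 of them at the smallest positive value, and 3 were negative, and their median was 0.0418 computed from the authors' deposited table. Without those at the smallest value 70.0% were positive, against 55.4% of all genes. After Tnfrsf9 came Tnfrsf18, the gene of the T cell costimulatory receptor GITR, at 0.419 in the authors' deposited table, a value held by 3 genes. Tnfrsf14, which encodes HVEM, the receptor for LIGHT, had 0.263 in the authors' deposited table. Tnfrsf1b encodes TNFR2, the TNF receptor without a death domain that is found mainly on leukocytes, and had 0.240 in the authors' deposited table. Tnfrsf13c, the gene of the BAFF receptor of B cells, had 0.214 in the authors' deposited table, a value held by 9 genes.

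The remaining TRAF-binding receptors were close to 0. Tnfrsf4, which encodes OX40, had 0.0444 and Tnfrsf8, which encodes CD30, had 0.0391 in the authors' deposited table. The value of Tnfrsf8 was held by 21 genes. Tnfrsf17, which encodes the plasma cell receptor BCMA, and Tnfrsf19, which encodes TROY, both had 2.42e-06, the smallest positive value in the authors' deposited table, which 841 genes share. Tnfrsf11a, which encodes RANK, the receptor on osteoclast precursors, had -0.0210 in the authors' deposited table. Tnfrsf13b, which encodes TACI, had -0.0444 in the authors' deposited table. Tnfrsf12a, which encodes Fn14, the receptor for TWEAK, had -0.0899 in the authors' deposited table.

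The death domain receptors divided evenly, with 2 of 4 positive and 2 negative. Tnfrsf25, which encodes DR3, the receptor for TL1A, had 0.225 in the authors' deposited table, the value that Tnfsf11 also held. Tnfrsf10b, which encodes the death receptor for TRAIL in mice, had 0.0594 in the authors' deposited table. Tnfrsf1a, which encodes TNFR1, the broadly expressed TNF receptor, had -0.0380 and Tnfrsf21, which encodes DR6, had -0.257 in the authors' deposited table. None of the 4 reached 0.5 in size. Nothing is read from this, since only 3.77% of all genes reached it on the positive side and 0.988% on the negative side.

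The decoy receptors and Tnfrsf26, a mouse relative of the decoys with no ligand given here, were also under 0.5 in size. So were most genes of the table. Tnfrsf22 and Tnfrsf23, which encode decoy receptors for TRAIL in mice, had 0.0712 and -0.0626 in the authors' deposited table. Tnfrsf26 had -0.298, the lowest value of a receptor gene in the authors' deposited table. Tnfrsf22, Tnfrsf23 and Tnfrsf26 are close paralogs that lie together on chromosome 7 from 143607685 to 143686436, and the counting may have divided reads that match several of them. Tnfrsf11b, which encodes osteoprotegerin, the soluble decoy for RANKL, was listed at exactly 0 in the authors' deposited table, as were 6982 genes in all.

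Among the members, ligand and receptor were on the same side in 11 of 17 pairs, on opposite sides in 5, and in 1 pair the receptor was at 0. Of these, 1 pair on the same side and 1 on opposite sides rest on Tnfrsf17 at the smallest positive value. Several pairs share a ligand or a receptor, and 57.7% of all genes other than 0 were positive, so nothing is read from the count. The 4-1BB pair had both values far from 0, at 1.11 for the ligand gene Tnfsf9 and 0.979 for the receptor gene Tnfrsf9 in the authors' deposited table. The OX40 pair was the most uneven, with 0.901 for Tnfsf4 and 0.0444 for Tnfrsf4 in the authors' deposited table, a difference of 0.856. TL1A and DR3 had 0.540 for Tnfsf15 and 0.225 for Tnfrsf25 in the authors' deposited table. For GITR and LIGHT the receptor gene had the larger value, with 0.163 for Tnfsf18 and 0.419 for Tnfrsf18, and 0.0179 for Tnfsf14 and 0.263 for Tnfrsf14, in the authors' deposited table.

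In 3 pairs both values lay on the side of Ly6c2, namely TWEAK with Fn14, APRIL with TACI, and TRAIL with the decoy encoded by Tnfrsf23. The TWEAK pair had -0.373 for Tnfsf12 and -0.0899 for Tnfrsf12a in the authors' deposited table. BAFF and APRIL, which share receptors, lay on opposite sides, at 0.397 for Tnfsf13b and -0.192 for Tnfsf13 in the authors' deposited table. TRAIL and its receptor also lay on opposite sides, at -0.168 for Tnfsf10 and 0.0594 for Tnfrsf10b in the authors' deposited table. Tnf, the gene of TNF itself, had 0.253 beside 0.240 for Tnfrsf1b and -0.0380 for Tnfrsf1a in the authors' deposited table.

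**Figure D2:**
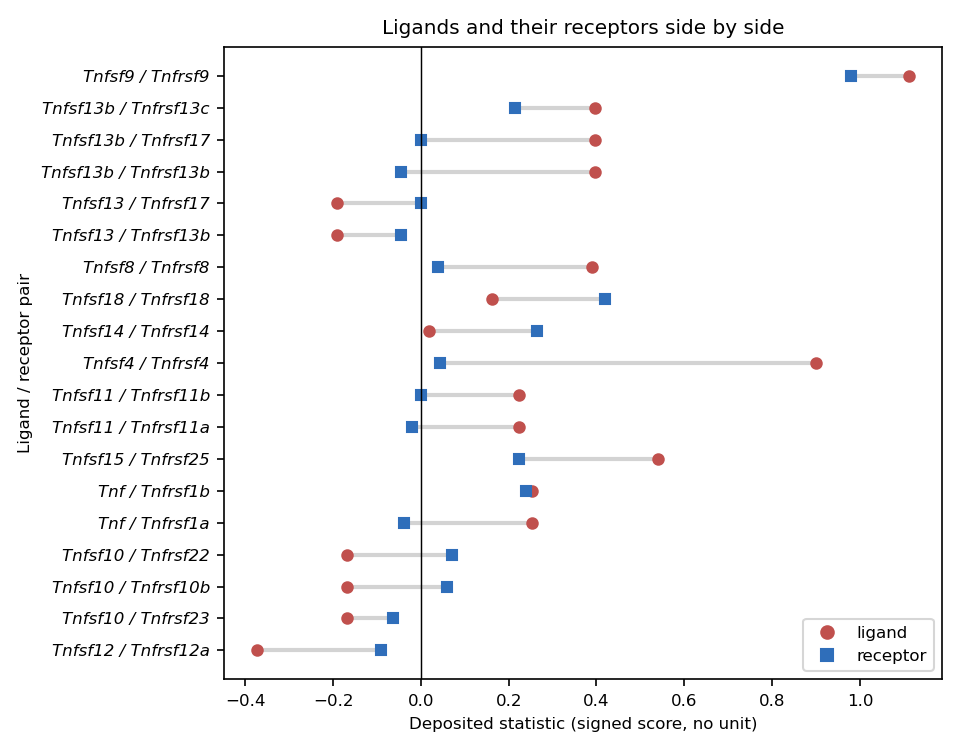
Deposited statistic (horizontal axis, signed score without unit) of ligand genes (circles) and receptor genes (squares) for 17 pairs of members and 2 pairs of Tnf with its receptors (vertical axis), joined by grey lines. The 4-1BB pair stands at the far right, and the OX40 pair has the longest line, with a difference of 0.856.

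Family genes with other symbols included 7 ligands, of which 6 were positive and 1 negative. The lymphotoxin genes Ltb and Lta, whose products form a membrane trimer that shapes lymphoid tissue, had 0.389 and 0.197 in the authors' deposited table. Cd70 and Eda both had 0.190, a value held by 47 genes, and Cd40lg had 0.0288, a value held by 358. Fasl, the gene of Fas ligand, had -0.112 in the authors' deposited table, a value held by 33 genes. Of 8 receptors with other symbols, 6 were positive and 2 negative. Cd40, the receptor through which T cells license antigen-presenting cells, had 0.839 and was the only one of the 15 genes to reach 0.5 in the authors' deposited table. Of all genes 3.77% reached that size on the positive side and 0.988% on the negative side, so nothing is read from this count. Relt had 0.412, Ngfr 0.341, the death receptor gene Fas 0.306, Eda2r 0.197 and Cd27 0.154 in the authors' deposited table. The values of Ngfr, Eda2r and Cd27 were held by 15, 25 and 18 genes. Edar had -0.0414, a value held by 76 genes, and Ltbr, the lymphotoxin beta receptor gene, -0.181 in the authors' deposited table. Fasl and its receptor gene Fas thus lay on opposite sides, though the value of Fasl is one that 33 genes share. Ltbr also lay opposite to the genes of its ligands, Ltb and Tnfsf14.

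The leading ligand genes were picked by their large values, so smaller values at their neighbours follow from that choice and nothing is read from them. Of the 46 family genes, 22 lie in 9 groups with gaps of at most 150 kb on mm10, and 16 of these 22 are members by symbol. Tnfsf9 lies on chromosome 17 from 57105287 to 57107758, and its neighbours Cd70 and Tnfsf14 had 0.190 and 0.0179 against its 1.11 in the authors' deposited table. Tnfsf4 lies on chromosome 1 from 161395438 to 161418206, and its neighbour Tnfsf18 had 0.163 against 0.901 in the authors' deposited table. Tnfsf15, on chromosome 4 from 63724600 to 63745059, and its neighbour Tnfsf8 had 0.540 and 0.390 in the authors' deposited table. Tnfrsf18 and Tnfrsf4, also neighbours on chromosome 4, had 0.419 and 0.0444 in the authors' deposited table. Chromosome 4 carries 9 of the 31 members, among them Tnfrsf9 from 150920155 to 150946104. In the GENCODE annotation of the same assembly, 11 members are overlapped by a gene on the opposite strand, among them Tnfrsf9 by Camta1 and Tnfsf9 by the noncoding Gm11110, and strand handling in the counting is not given in the sources used here.

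Genes that act downstream of the receptors were counted by list, beside the 57.7% of all genes other than 0 that were positive. The share that reached 0.5 on that side was 3.77% of all genes, those at 0 included. Of 6 TRAF adaptor genes, 5 were positive, and Traf6 had -0.0154 in the authors' deposited table. The 1 gene that reached 0.5 was Traf1, an NF-kB target whose product binds 4-1BB, TNFR2 and CD30 complexes, with 1.33 at rank 71 in the authors' deposited table. Traf4, Traf5 and Traf2 had 0.345, 0.214 and 0.109 in the authors' deposited table. All 3 genes of the non-canonical NF-kB branch were positive, with 0.837 for Map3k14, the kinase gene that starts it, 0.397 for Relb and 0.323 for Nfkb2 in the authors' deposited table.

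Of 12 canonical NF-kB genes, 10 were positive and 2 negative, and 3 reached 0.5 on the positive side, where 3.77% of all genes did. Their median was 0.276 computed from the authors' deposited table. The list pools subunits and kinases with inhibitors of the pathway, so neither the count nor the median measures its activity. The subunit genes Rel and Nfkb1 stood at 0.801 and 0.573, the inhibitor gene Tnip1 had 0.677 and Nfkbia, which encodes the inhibitor IkB alpha, had 0.381 in the authors' deposited table. The 2 negative genes, named after their values were seen, were Ikbkg at -0.352 and Chuk at -0.147 in the authors' deposited table, both subunits of the IkB kinase complex. Of 13 death signalling genes, 6 were positive and 7 negative and none reached 0.5, with a median of -0.0066 computed from the authors' deposited table. The inhibitor of apoptosis genes Birc2 and Birc3 had 0.460 and 0.336, and the kinase gene Ripk1 had -0.307 in the authors' deposited table. The 3 protease genes that shed or process ligands were all positive and under 0.5, with 0.253 for Furin, 0.0315 for Adam17, which encodes the TNF-converting enzyme, and 0.0050 for Adam10 in the authors' deposited table.

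**Figure D3:**
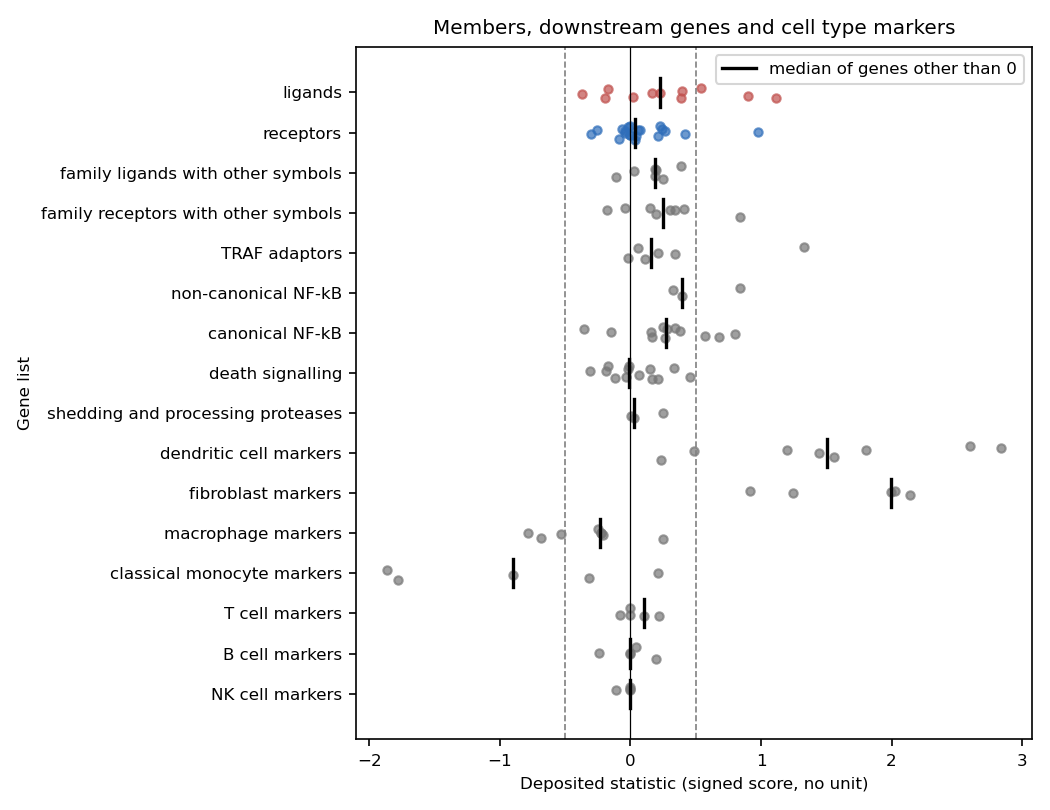
Deposited statistic (horizontal axis, signed score without unit) of each gene (points) in the member groups, the downstream lists and the cell type marker lists (vertical axis), with black bars at the median of genes other than 0 and dashed lines at a size of 0.5. Dendritic cell and fibroblast markers lie to the right, classical monocyte markers to the left with 1 exception, and T cell, B cell and NK cell markers lie between the dashed lines.

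Dendritic cell and fibroblast markers lay on the same side as the leading members. All 8 dendritic cell markers were positive, from 0.237 for Xcr1 to 2.84 for Ccr7, and 6 of them reached 0.5 in the authors' deposited table. All 5 fibroblast markers were positive and reached 0.5, from 0.919 for Pdgfra to 2.14 for Col1a1 in the authors' deposited table. Of all genes 3.77% reached 0.5 on that side, and 57.7% of the genes other than 0 were positive. Of 8 macrophage markers 7 were negative, 3 of them with a size of at least 0.5, and 1, Csf1r, was positive. Their range ran from -0.786 for Fcgr1 to 0.248 for Csf1r in the authors' deposited table. Of 5 classical monocyte markers, 4 were negative, and Ccr2 had 0.214 in the authors' deposited table. Of these, 3 had a negative value with a size of at least 0.5, among them the landmark Ly6c2 itself. On the negative side 0.988% of all genes reached that size. The part of dendritic cells or other cells in the values of Tnfsf9, Tnfrsf9, Tnfsf4 and Tnfsf15 was not tested.

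Markers of lymphocytes, the usual carriers of 4-1BB, OX40 and GITR, had small values. Of 6 T cell markers 5 were in the table, where Cd3e and Cd3g were listed at exactly 0, Cd3d at -0.0812, Cd8a at 0.107 and Cd4 at 0.219 in the authors' deposited table. The 5 B cell markers ran from -0.242 for Cd79b to 0.196 for Cd79a, and the 4 NK cell markers from -0.112 for Eomes to 2.42e-06 for Klrb1c and Nkg7, with Ncr1 at exactly 0, in the authors' deposited table. None of these 14 lymphocyte genes reached 0.5 in size. Of all genes only 3.77% did on the positive side and 0.988% on the negative side, so nothing is read from this count. A value of 0 in the statistic says nothing here of the level of a gene in either library. Of the other lists, all 4 neutrophil markers in the table and all 4 cardiomyocyte markers were positive, led by S100a8 at 0.544 and Tnnt2 at 0.529, and 3 of 4 endothelial markers were negative, led by Kdr at -0.569, in the authors' deposited table.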

How the data were processed

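The series holds RNA sequencing of 2 libraries, 1 per population. Reads were processed with CASAVA 1.8.2, TopHat and the mouse build mm10, per the submitters' processing notes. How reads were counted, on which annotation and strand, and how the statistic was computed is not given in the sources used here. A single table was deposited by the authors, in which the statistic is a signed score per gene and the ranking is a score that orders genes by the size of the statistic, per the file headers. A recomputed rank matched it within 1e-06 for 23284 of 23284 genes. The table's 2 columns of values per library match no sample label and were not used, so CPM, depth, fold changes and counting intervals were not computed.

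Members were matched by symbol, split into ligands and receptors, and counted past sizes of 0.5, 1 and 0.25. Medians over genes other than 0 carry an order-statistic interval at a level of at least 95%. It treats the genes of a group as independent draws, though the table held all members that RefSeq names, and it holds no replicate error. Members and lists were chosen with earlier results of these data known. Named genes were all members, all family genes with other symbols, and up to 4 genes of each downstream list by size of the statistic. The value of 1 gene that this rule names is not reported here. Traf6, Ikbkg, Chuk and the markers given by value were named after their values were seen. Older symbols (Chi3l3 for Chil3, Emr1 for Adgre1) were matched through RefSeq, and coordinates are those of RefSeq on GRCm38.p6. Counts, ranks and intervals were checked on simulated data. The tools were Python 3.11.15 with pandas 2.3.3, NumPy 2.4.6, Matplotlib 3.10.9 and SciPy 1.17.1. No test was run, because there are no replicates to give a spread.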

Additional observations from a re-analysis of the deposited data

How the results depend on the processing

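No paired analysis was possible because there is only 1 library for each population, and none can be left out. The number of members on the positive side was 4 at a size of at least 0.5, 1 at a size of at least 1 and 8 at a size of at least 0.25. On the negative side it was 0 at sizes of 0.5 and 1 and 3 at 0.25. The ligand median of 0.225 ran from 0.194 with the family ligands of other symbols added to 0.390 without the overlapping Tnfsf12 and Tnfsf13, and the receptor median of 0.0391 ran from 0.0195 with the member at 0 included to 0.0918 as a mean. All these values stayed positive. They also lay inside the order-statistic intervals of the main medians, but both intervals include 0 and are too wide for this to be a check. Leaving out Tnfsf12 and Tnfsf13, or the receptors at the smallest positive value, was chosen after seeing the data. The letters WAD in the name of the table also abbreviate the weighted average difference, in which a log ratio is scaled by abundance. No source used here says that this is the statistic, but if it is, a weakly expressed gene scores low even at a large ratio. Small values and values shared by many genes are therefore not read as equal expression.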
